A study of Homo sapiens with 5 samples.

Results

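The BCL2 family decides whether a cell under stress keeps its mitochondria intact or dies, and 10 of its genes were followed here in human leukaemia cells recovered from the brain lining and from the spleen of the same kind of host mouse. The genes are 4 anti-apoptotic members (BCL2, BCL2L1, MCL1 and BCL2A1), 4 BH3-only members (BCL2L11, BBC3, PMAIP1 and BMF) and 2 effectors (BAX and BAK1). They were chosen by name, with earlier results of these data known. They were matched by Ensembl identifier in the deposited human gene table, which lists 65217 identifiers. All 10 were found, and all 10 were among the 20419 genes kept after a filter on low counts.

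The cells were REH, an established line from a human B cell precursor leukaemia with the ETV6-RUNX1 fusion, also named TEL-AML1. They were grown in NSG mice (NOD.Cg-PrkdcscidIl2rgtm1Wjl/SzJ), immunodeficient animals without functional T, B or natural killer cells, that were 6 to 10 weeks old when transplanted. The brain group is leukaemia cells from the leptomeninges (3 libraries) and the spleen group is leukaemia cells from the spleen (2 libraries). Both groups share the line, the host strain and purification on a density gradient, the labels name no drug for either, and each library holds RNA pooled from 5 mice. The spread between libraries is thus that between occasions and not between animals, the model is a single cell line, and no cultured REH cells are compared here.

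Library totals were 38387991 to 48764202 estimated counts on human genes. The precursor B cell label was checked with 9 markers: 8 passed the filter, with a summed level of 5203 to 5289 CPM (counts scaled to library size, with TMM factors) in brain and 5799 to 5928 in spleen, and VPREB1 was at 0 counts in all 5 libraries. Mouse reads made up 5.70%, 2.58% and 2.64% of brain replicates 1 to 3 and 6.33% and 8.87% of spleen replicates 1 and 2, so every brain library lay below every spleen library. The summed levels of the other marker lists were 1.504 to 1.98 CPM for T and NK cells, 0.0202 to 0.114 for erythroid cells and platelets, 11.4 to 17.4 for neural and glial cells, 17.0 to 39.8 for myeloid cells and 3.13 to 19.96 for stromal and endothelial cells. In the myeloid list MPO carried most of the sum. In the stromal and endothelial list PECAM1, a gene that leukocytes also express, carried most of it in the brain libraries, while in both spleen libraries COL1A1 was the higher of the pair. PECAM1 stood at 12.7, 17.4 and 10.2 CPM in the brain libraries against 1.78 and 1.09 in spleen. It was called higher in brain (log2 fold change 3.23, edgeR adjusted p = 0.000601), the only call on that list. The T and NK, neural, myeloid and stromal sums were higher in every brain library than in both spleen libraries, and their part in the results was not tested. MBP carried most of the neural sum, and SNAP25 was at 0 counts in all 5 libraries. The precursor B cell sum was lower in every brain library, and of its markers CD79A was called lower (edgeR adjusted p = 0.0166). In bulk RNA, fewer cells of a type and less RNA per cell cannot be told apart.

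Anti-apoptotic members hold the effectors in check. BH3-only proteins are the sensors: they are induced or released by damage, growth factor loss, hypoxia or detachment, they bind into a groove of the anti-apoptotic members, and some of them activate the effectors directly. BAX and BAK1 then form pores in the outer mitochondrial membrane, cytochrome c escapes, and caspases are activated. Many lymphoid leukaemias depend on BCL2 or MCL1, and BCL2 inhibitors act by taking the place of BH3-only proteins in that groove.

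BBC3 and BMF, both BH3-only genes, were the members with the smallest p, so the stretch before the start of a transcript of each is shown, BBC3-202 and BMF-201. BBC3-202 is not the BBC3 transcript with the higher estimate in brain: that is BBC3-203, whose upstream stretch is not shown here. They were read from the GRCh38 genome on the minus strand, 5′ to 3′. The first ends just before the start, and the second leaves out bases that belong to the untranslated exon of another BMF transcript. Capitals mark matches to the HIF core (ACGTG) and to the CCAAT box (CCAAT), on either strand.
BBC3-202, chr19:47232767-47233016: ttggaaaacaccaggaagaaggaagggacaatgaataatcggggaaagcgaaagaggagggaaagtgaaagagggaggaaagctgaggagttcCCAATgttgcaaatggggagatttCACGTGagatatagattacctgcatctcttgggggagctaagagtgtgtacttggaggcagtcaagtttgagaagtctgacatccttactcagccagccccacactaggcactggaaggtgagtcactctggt
BMF-201, chr15:40108893-40109129: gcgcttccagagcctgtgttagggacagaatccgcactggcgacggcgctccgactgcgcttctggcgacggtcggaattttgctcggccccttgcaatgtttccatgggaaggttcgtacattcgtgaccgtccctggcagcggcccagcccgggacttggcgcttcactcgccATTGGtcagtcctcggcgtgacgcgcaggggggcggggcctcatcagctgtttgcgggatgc

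The stretch before BBC3-202 is 48.4% G and C and has no GC box (GGGCGG, either strand, overlaps counted). Its capitals are a CCAAT box, which 32% of 35116 RefSeq promoter windows (GRCh38.p14) of the same 250 bases hold, and a palindrome that holds the HIF core on both strands. The HIF core on either strand is found in 18.5% of the windows. It also has an AP-1 match (TGANTCA), not capitalised, that begins 14 bases before the start, a motif found in 6.57% of the windows. Before BMF-201 there is 1 GC box, found in 42.6% of the windows, and 1 CCAAT box, but no HIF core. A match is a run of letters and not a measured binding site.

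In cells from brain, 4 of the 10 members were higher, 0 were lower and 6 did not pass the test (edgeR quasi-likelihood test, Benjamini-Hochberg adjustment over all genes, threshold 0.05). Over all genes tested 6.01% were higher and 3.50% lower, 9.51% in either direction. BCL2A1 passed the filter on low counts only through its brain libraries, so its call cannot be read against these shares, and without it the count is 3 of 9. The higher members were BBC3 and BMF among the BH3-only genes and BCL2 and BCL2A1 among the anti-apoptotic genes, and both effectors were among those that did not pass. The median log2 fold change (brain over spleen) was 0.87 for the BH3-only members, 0.28 for the anti-apoptotic members and -0.19 for the effectors, against 0.0066 for all genes tested. For 4 further BH3-only genes (BID, BAD, BIK and HRK) it was 0.13, so 0.87 cannot be read for BH3-only genes as a class. The anti-apoptotic median includes BCL2A1, and the other anti-apoptotic members were at 0.46 (BCL2), 0.11 (MCL1) and 0.068 (BCL2L1). Brain and spleen libraries did not overlap for 5 members, each time with brain above spleen, an order found for 23.3% of all genes tested. BCL2A1 is among the 5, and its order cannot be read against this share either. With the mouse share of each library as a covariate 0 of the members passed, while 114 of all genes were higher. The fitted log2 fold changes were then 1.30 for BBC3, 1.33 for BMF and 0.46 for BCL2. The part of the mouse share in these results cannot be told apart from the site with so few libraries.

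**Figure D1:**
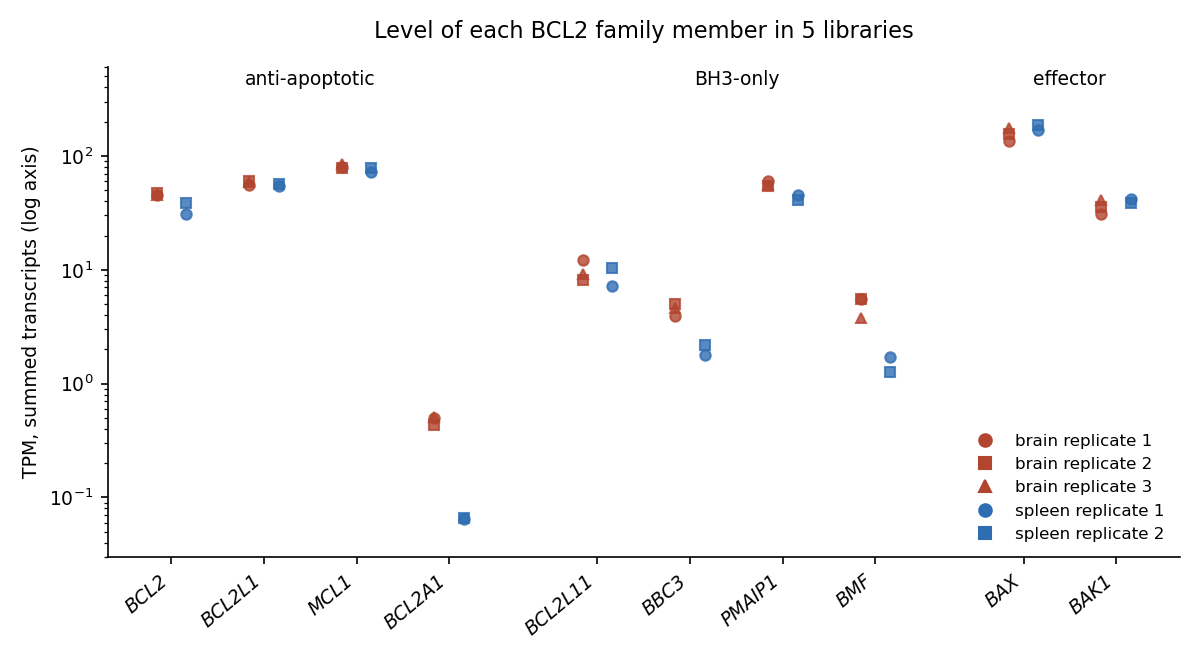
Level of each member in TPM (reads per transcript length and depth, summed over its transcripts, log axis), by class, with 1 point per library (3 brain in red, 2 spleen in blue). The brain points lie above the spleen points for BCL2, BCL2A1, BBC3, PMAIP1 and BMF and overlap for the other members.

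BMF encodes a BH3-only protein that is held at the cytoskeleton by a dynein light chain until it is released. It stood at 12.3, 13.0 and 11.6 CPM in the brain libraries and at 4.92 and 3.51 in the spleen libraries. All brain libraries lay well above both spleen libraries. The level was 2.93-fold higher in brain (edgeR adjusted p = 0.0017), with a 95% interval of 1.14 to 1.96 on the log2 scale. The gene lies at GRCh38 chromosome 15, 40087890 to 40108892, on the minus strand (ENSG00000104081), and an antisense RNA gene, BMF-AS1, overlaps it.

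BBC3 encodes PUMA, a strong activator of apoptosis (ENSG00000105327, chromosome 19, 47220822 to 47232766, minus strand). Its level was 5.05, 5.52 and 5.44 CPM in the brain libraries and 2.01 and 2.28 in the spleen libraries. The groups were far apart compared with the spread within them. The log2 fold change was 1.31 (edgeR adjusted p = 0.00496, SE 0.192), a level 2.49-fold higher in brain. BBC3 and BMF kept their call without any 1 of the 5 libraries, with adjusted p up to 0.0288 and 0.0116. With limma on log2 TPM neither passed (adjusted p = 0.0825 for BBC3 and 0.0603 for BMF).

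PMAIP1 encodes NOXA, a small BH3-only protein that binds mainly MCL1 (ENSG00000141682, chromosome 18, 59899996 to 59904305). It stood at 72.3, 61.5 and 65.9 CPM in the brain libraries against 54.4 and 44.5 in spleen. Every brain library was above both spleen libraries, but the gene did not pass. Its log2 fold change was 0.43 (edgeR adjusted p = 0.0572, SE 0.12). It passed under 4 of the 15 alternatives tried. Among these were the replicate block (adjusted p = 0.0328), the DESeq2 Wald test (0.0265) and no filter on low counts (0.0116). PMAIP1 did not pass under the other 11, such as limma on log2 TPM (adjusted p = 0.115) and the mouse share covariate (0.423). When any 1 library was dropped, its log2 fold change lay between 0.29 and 0.57.

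BCL2L11 encodes BIM, which can bind all the anti-apoptotic members and is a mediator of glucocorticoid killing of lymphoid cells (ENSG00000153094, chromosome 2, 111119378 to 111168444). The 5 libraries stood at 34.4, 34.6 and 37.1 CPM in the brain libraries against 30.1 and 38.2 in spleen. The spleen libraries lay on either side of the brain libraries. The log2 fold change was 0.050, with a 95% interval of -0.23 to 0.33 (edgeR adjusted p = 0.852), and -0.12 without spleen replicate 1. A change of 2-fold in either direction lies outside that interval.

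Among the anti-apoptotic genes, BCL2 (ENSG00000171791, chromosome 18, 63123346 to 63320128) was the one abundant member that was higher. Its level was 206, 198 and 206 CPM in the brain libraries and 150 and 146 in the spleen libraries. The libraries of a site were close together and the sites did not overlap. The log2 fold change was 0.46 (edgeR adjusted p = 0.0194, SE 0.093), a level 1.38-fold higher in brain. BCL2 missed the threshold when brain replicate 1 was left out (adjusted p = 0.0819), brain replicate 2 (0.0572), spleen replicate 1 (0.0592) or spleen replicate 2 (0.0593), with a log2 fold change of 0.44 to 0.48 when 1 library was left out.

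MCL1, a short-lived protein on which many leukaemias depend (ENSG00000143384, chromosome 1, 150560895 to 150579738), stood at 212, 198 and 231 CPM in the brain libraries against 210 and 186 in spleen. The groups overlapped, and the log2 fold change was 0.11 with a 95% interval of -0.14 to 0.36 (edgeR adjusted p = 0.598). BCL2L1, which encodes BCL-XL (ENSG00000171552, chromosome 20, 31664452 to 31723989), stood at 93.2, 99.4 and 102.1 CPM in the brain libraries against 99.7 and 87.7 in spleen. Here too the groups overlapped, and the log2 fold change was 0.068 with an interval of -0.16 to 0.30 (edgeR adjusted p = 0.739). It was -0.024 without spleen replicate 2. Antisense genes overlap MCL1 and BCL2L1, and the strand setting of the counting is not given in the sources used here.

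BCL2A1 encodes A1, an anti-apoptotic protein induced by NF-kB in activated and myeloid cells (ENSG00000140379, chromosome 15, 79960892 to 79971196). It was near the detection limit, with 13, 13 and 15 counts in the brain libraries and 2 in each spleen library. Every brain library was above both spleen libraries, and the gene passed the filter only through its brain counts. The summed counts, 41 against 4, gave a ratio of 7.24 after scaling, with a 95% counting interval of 2.62 to 27.8. The fitted log2 fold change was 2.78 (edgeR adjusted p = 0.0245, SE 0.604), and it missed the threshold when brain replicate 1 was left out (adjusted p = 0.0778), brain replicate 2 (0.0530), spleen replicate 1 (0.115) or spleen replicate 2 (0.117). With the replicate block it had an adjusted p of 0.0504. At this level it was removed by the filter at 1 CPM and had no adjusted p from DESeq2. Among myeloid markers CD68 was at 0.641, 1.72 and 1.02 CPM in the brain libraries against 0.251 and 0.317 in spleen (edgeR adjusted p = 0.0335) and MPO at 25.4, 36.7 and 23.4 against 19.6 and 14.3 (0.0575), while CD14 (0.564, 0.485 and 1.91 against 0.866 and 0.972), LYZ and ITGAM overlapped between the sites. Their part in the BCL2A1 result was not tested.

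The effectors BAX (ENSG00000087088, chromosome 19, 48954815 to 48961798) and BAK1 (ENSG00000030110, chromosome 6, 33572547 to 33580293) were not called in either direction. BAX stood at 72.3, 77.9 and 89.2 CPM in the brain libraries against 95.3 and 87.5 in spleen, and the highest brain library lay above the lower spleen library. Its log2 fold change was -0.20 with a 95% interval of -0.45 to 0.061 (edgeR adjusted p = 0.322). BAK1 stood at 47.1, 51.5 and 60.8 CPM in the brain libraries against 67.9 and 52.7 in spleen, with a log2 fold change of -0.18 and an interval of -0.51 to 0.14 (edgeR adjusted p = 0.481). It was 0.0043 without spleen replicate 1. Processed pseudogenes of BAK1 are annotated, so some of its reads could be shared with them.

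**Figure D2:**
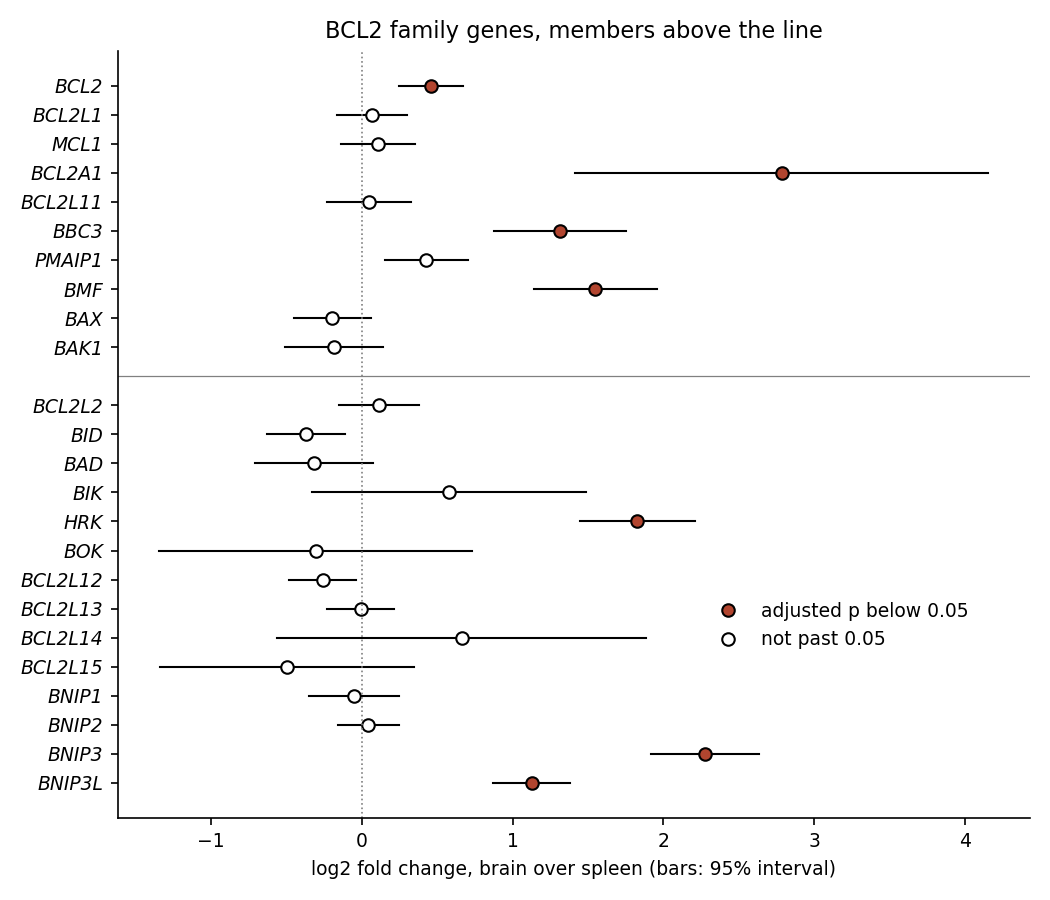
Log2 fold change, brain over spleen, with its 95% interval for the 10 members (above the line) and for 14 other genes of the family or named like it that passed the filter (below). Filled points passed an edgeR adjusted p of 0.05: BCL2, BCL2A1, BBC3 and BMF above the line and HRK, BNIP3 and BNIP3L below it.

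To set genes of different length beside each other, levels were also taken in TPM, rescaled to human transcripts. The most abundant member was BAX, at 157 ± 20.6 TPM (SD, n = 3 brain libraries) and 179 ± 13.3 (n = 2 spleen libraries). MCL1 followed at 81.1 ± 3.99 in brain and 75.9 ± 4.24 in spleen, then BCL2L1 at 58.4 ± 2.67 and 55.8 ± 1.49. PMAIP1, at 56.9 ± 3.16 TPM in brain, was within the spread of BCL2L1 there, and at 43.1 ± 3.39 below it in spleen. BCL2 (45.8 ± 1.29 and 34.9 ± 5.44) and BAK1 (35.8 ± 4.85 and 40.5 ± 2.23) came next, with BCL2 above BAK1 in every brain library and below it in both spleen libraries. BCL2L11 (9.79 ± 2.05 and 8.73 ± 2.16), BMF (4.96 ± 0.999 and 1.48 ± 0.314) and BBC3 (4.53 ± 0.548 and 1.99 ± 0.278) were the low BH3-only genes, and in brain BMF and BBC3 did not differ beyond their spread. BCL2A1 was at 0.480 ± 0.0384 TPM in brain and 0.0655 ± 0.000745 in spleen. The BCL2L11 level is a low estimate, since transcripts matched to the annotation held only 47.6% to 72.6% of its count in the gene table, against over 99% for the other members.

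Summed by class in TPM, the anti-apoptotic members reached 180, 187 and 190 in the brain libraries and 159 and 175 in the spleen libraries. The BH3-only members summed to 82.0, 73.1 and 73.5 in brain and to 56.2 and 54.4 in spleen. Both sums were higher in all brain libraries, while the effector sum overlapped (168, 192 and 218 against 212 and 228). The BH3-only sum was 0.454, 0.392 and 0.386 of the anti-apoptotic sum in brain and 0.354 and 0.312 in spleen, so the lowest brain value was only a little above the highest spleen value. No test is given, as the members were chosen with results known and 3 against 2 libraries cannot fall below p = 0.2 in a two-sided exact permutation test. With PMAIP1 and MCL1, the most abundant of each class, left out, the mean ratio was 0.185 in brain and 0.134 in spleen. These sums and ratios cover the members only. Among other BH3-only genes, BID was at 35.6 ± 4.27 TPM in brain and 52.7 ± 1.64 in spleen. BAD was at 64.2 ± 3.74 and 80.9 ± 17.6, while HRK (5.53 ± 0.780 and 2.14 ± 1.13) and BIK (0.847 ± 0.255 and 0.577 ± 0.0565) had the opposite order. BID and BAD were both more abundant than BCL2L11, BMF and BBC3, and both were lower on average in brain. The higher ratio in brain thus holds for the chosen members and cannot be read for BH3-only genes as a class. A ratio with these genes included was not taken.

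BBC3 and BMF together made up 11.5%, 14.5% and 11.4% of the BH3-only sum in brain and 6.22% and 6.33% in spleen. PMAIP1 thus carried most of that sum at both sites. Relative to BCL2, the sum of BBC3 and BMF was 0.209, 0.225 and 0.186 in brain and 0.113 and 0.0890 in spleen, so it was higher in each brain library even though BCL2 was also higher there. The ratio of BCL2 to MCL1 was 0.568, 0.604 and 0.525 in brain and 0.425 and 0.491 in spleen. Those ratios did not overlap, but the gap between brain replicate 3 and spleen replicate 2 was smaller than the spread within either site. The ratio of BAX to BAK1 was 4.37, 4.42 and 4.34 in brain and 4.04 and 4.85 in spleen, with the spleen libraries on either side.

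The transcript estimates show which forms of the members were present. Of 75118 transcripts tested, 0 passed (edgeR, Benjamini-Hochberg adjustment, 0.00% called), while 6065 (8.07%) had an unadjusted p below 0.05, and 19 passed with no filter on low counts. Of the 39 transcripts of members tested, 6 had an unadjusted p below 0.05 and none is called here. The files do not hold the uncertainty of sharing reads between transcripts, so these p-values are too small where transcripts overlap.

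BBC3-203, the 193-codon form, was at 3.95, 2.77 and 3.74 TPM in brain and 0.563 and 1.08 in spleen. All brain libraries were higher. The log2 fold change was 2.15 (unadjusted p = 0.00183, edgeR adjusted p = 0.299). BBC3-202, the 131-codon form, which starts farther upstream, was at 0, 1.72 and 0 TPM in brain and 1.02 and 1.11 in spleen. Within brain alone, the share of BBC3-203 in the summed TPM ran from 54.9% to 100%, against 31.4% and 49.1% in spleen.

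For BMF, the 2 main transcripts encode the same 184 codons from different starts. BMF-201 was at 1.93, 1.56 and 2.16 TPM in brain and 0.497 and 0.206 in spleen, and BMF-202 at 1.52, 2.28 and 1.28 in brain and 0.844 and 0.953 in spleen. Both were higher in all brain libraries, with log2 fold changes of 2.36 and 0.91 (edgeR adjusted p = 0.391 and 0.544). For BCL2, BCL2-202 held 74.6% of the summed TPM, at 34.4, 33.5 and 36.1 TPM in brain and 23.9 and 26.4 in spleen, while BCL2-203 held 14.4% and BCL2-201 held 10.7%. PMAIP1-202, the 54-codon NOXA form, held 69.1% of its gene, at 44.1, 37.1 and 38.8 TPM in brain and 26.7 and 31.1 in spleen. The 136-codon PMAIP1-201 held 25.6%, and its spleen libraries (16.6 and 7.25 TPM) lay on either side of the brain libraries (12.2, 14.1 and 15.5).

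**Figure D3:**
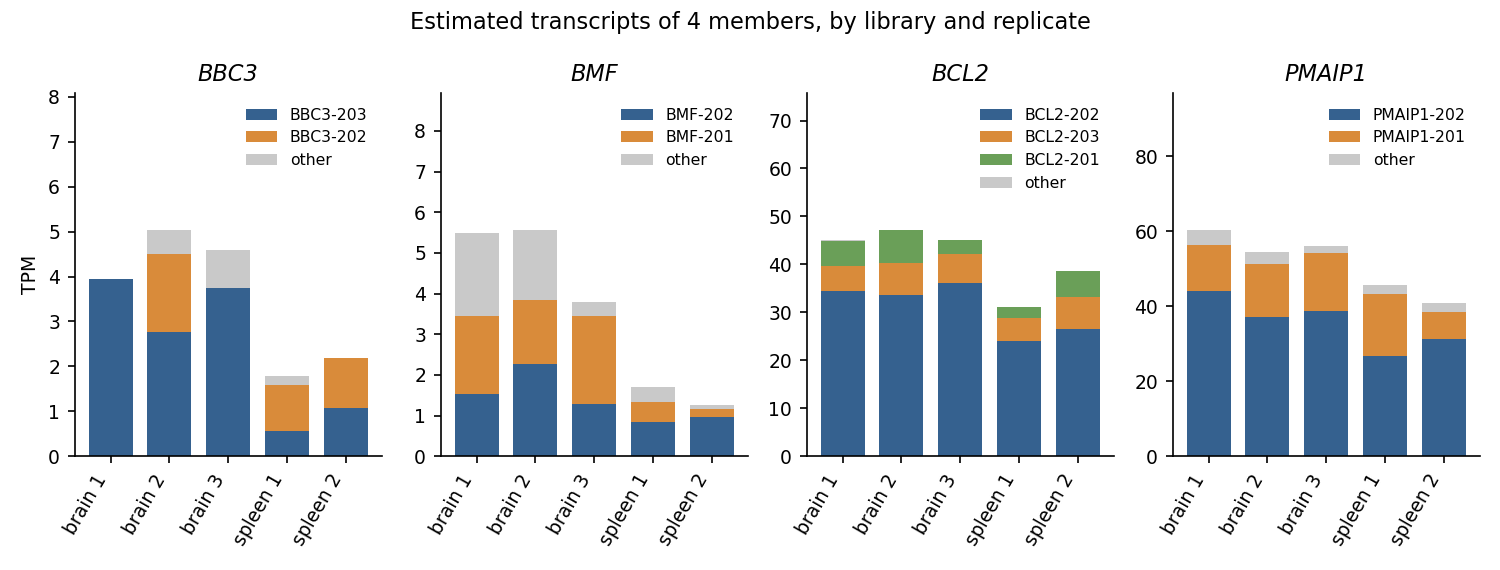
Estimated TPM of the transcripts with at least 10% of the summed TPM of BBC3, BMF, BCL2 and PMAIP1, stacked per library, with the remaining transcripts in grey; each panel has its own axis from 0. The total is higher in each brain library, and the split of BBC3 between BBC3-203 and BBC3-202 varies from library to library within brain.

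BCL2L1 is spliced into a long anti-apoptotic and a short pro-apoptotic form. These forms were chosen for mention after their values were seen. Transcripts of the long form (233 codons) held 81.5%, 82.7% and 84.3% of the BCL2L1 TPM in brain and 85.9% and 80.5% in spleen, and the 2 transcripts of the short form (170 codons) held 18.1%, 15.8% and 15.0% in brain and 13.4% and 18.7% in spleen. The spleen libraries lay on either side of the brain libraries for both forms. MCL1-202, the full-length form of 350 codons, held 86.8%, 83.3% and 82.3% of MCL1 in brain and 84.5% and 84.9% in spleen. BAK1-201 held 86.0%, 84.4% and 87.6% of BAK1 in brain and 85.9% and 86.4% in spleen. BAX was spread over more forms, with BAX-202 at 41.0%, 26.7% and 34.6% in brain and 51.8% and 33.5% in spleen, a range as wide within sites as between them. BAX-201 held 22.5% of BAX, BAX-208 held 13.6% and BAX-210, a retained intron, held 10.9%, on average over the libraries. BAK1-202 held the remaining 13.96% of BAK1. BCL2A1-201 held 95.3% of BCL2A1, and of the BCL2L11 transcripts that could be matched BCL2L11-204 (198 codons) held 52.9% and BCL2L11-208 held 20.6%. BCL2L1-201 is the main transcript of the long form, with 72.0% of BCL2L1.

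Related genes were counted on 10 further lists with 72 genes, chosen by role and with earlier results of these data known. Of these genes 70 were tested, 16 were higher, 0 were lower and 54 did not pass (edgeR adjusted). Over all genes tested 6.01% were higher and 3.50% lower. For lists chosen this way, here and below, these shares give the scale and are no test. The lower count on the lists was 4 by the DESeq2 Wald test. The median log2 fold change of the 70 tested genes was 0.086, against 0.0066 for all genes tested. The rest of the family gave 1 call: HRK, a BH3-only gene best known from neurons, was higher, BID, BAD and BIK did not pass, and neither did BCL2L2 among anti-apoptotic genes nor BOK among effectors. BCL2L10 did not pass the filter. BID was lower in every brain library (43.4, 39.8 and 41.8 CPM) than in both spleen libraries (59.6 and 48.1), an order found for 19.5% of all genes tested. Its log2 fold change was -0.37 (edgeR adjusted p = 0.0775), that of BAD was -0.32 (0.297) and that of BIK 0.58 (0.413). HRK stood at 17.5, 14.7 and 15.6 CPM in the brain libraries against 3.90 and 5.08 in spleen, and its log2 fold change was 1.83 (edgeR adjusted p = 0.000579, SE 0.168). All brain libraries were far above both spleen libraries. HRK missed the threshold with limma on log2 TPM (adjusted p = 0.121).

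Of 8 genes of the BCL2-like and BNIP group 2 were higher, 0 lower and 6 did not pass, beside 6.01% of all genes higher. BNIP3 and BNIP3L encode mitophagy receptors with a BH3-like stretch and are known hypoxia targets. BNIP3 stood at 89.3, 114 and 80.7 CPM in the brain libraries against 19.5 and 19.6 in spleen (log2 fold change 2.28, edgeR adjusted p = 0.000167), and BNIP3L at 208, 213 and 195 in brain and 102 and 86.0 in spleen (1.13, edgeR adjusted p = 0.000818). BNIP3 remained past the threshold under all 15 alternatives tried.

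For genes that act downstream of the pores or beside them, the counts stand beside 9.51% of all genes called in either direction. Of 11 apoptosome and caspase genes 0 were higher and 0 lower (edgeR adjusted), and the most abundant, the cytochrome c gene CYCS, had 192 ± 18.9 CPM in the brain libraries against 243 ± 6.81 in spleen (log2 fold change -0.34, adjusted p = 0.0906). Of 3 VDAC channel genes none passed, and the most abundant, VDAC1, had an edgeR adjusted p of 0.267 and a log2 fold change of -0.22. Of 7 inhibitor of apoptosis genes and antagonists 1 was higher, BIRC3, an NF-kB target, at 3.66, 2.22 and 2.89 CPM in the brain libraries against 1.12 and 1.17 in spleen. BIRC3 missed the threshold without brain replicate 1 (adjusted p = 0.0808), spleen replicate 1 (0.0758) or spleen replicate 2 (0.0507). Of 8 death receptor genes 1 was higher, the TNF receptor gene TNFRSF1A, with a log2 fold change of 0.63, and it lost its call without brain replicate 2 (adjusted p = 0.0523).

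Among 15 tested regulators known to control transcription of family members 8 were higher, 0 lower and 7 did not pass, with a median log2 fold change of 0.43, beside 6.01% of all genes higher. The higher count was 3 without brain replicate 1, 4 without brain replicate 2, 4 without spleen replicate 1, and 1 each with limma on log2 TPM and with the mouse share covariate. FOXO3 and STAT5B (edgeR adjusted p = 0.0493 and 0.0464) missed the threshold under 13 of the 15 alternatives each, and were picked for mention after their values were seen. The 4 with the smallest p were STAT5A, a cytokine-driven activator of BCL2L1 and MCL1 (log2 fold change 1.22), the AP-1 gene JUN (1.91), the stress factor gene DDIT3 (0.83) and the glucocorticoid receptor gene NR3C1 (0.55). NR3C1 did not pass without brain replicate 1 (adjusted p = 0.0666).

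Of 12 genes of binding partners and protein turnover 3 were higher, 0 lower and 9 did not pass, beside 6.01% of all genes higher. FBXW7, a ubiquitin ligase subunit that marks MCL1 for degradation, stood at 109, 101 and 110 CPM in the brain libraries against 38.7 and 39.4 in spleen (log2 fold change 1.45, edgeR adjusted p = 0.000138). In TPM its log2 fold change was 0.49 and did not pass (limma adjusted p = 0.199). From summed transcript estimates, which are not divided by length, it was 0.57 (edgeR adjusted p = 0.0394). Both measures use only transcripts that matched the annotation, and the part of this in the lower values was not tested. PIM2, a survival kinase, and MARCHF5, a ubiquitin ligase of the mitochondrial outer membrane, had log2 fold changes of 0.70 and 0.47. MARCHF5 did not pass without brain replicate 1 (adjusted p = 0.0927), without brain replicate 2 (0.0539) or without spleen replicate 2 (0.0662).

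**Figure D4:**
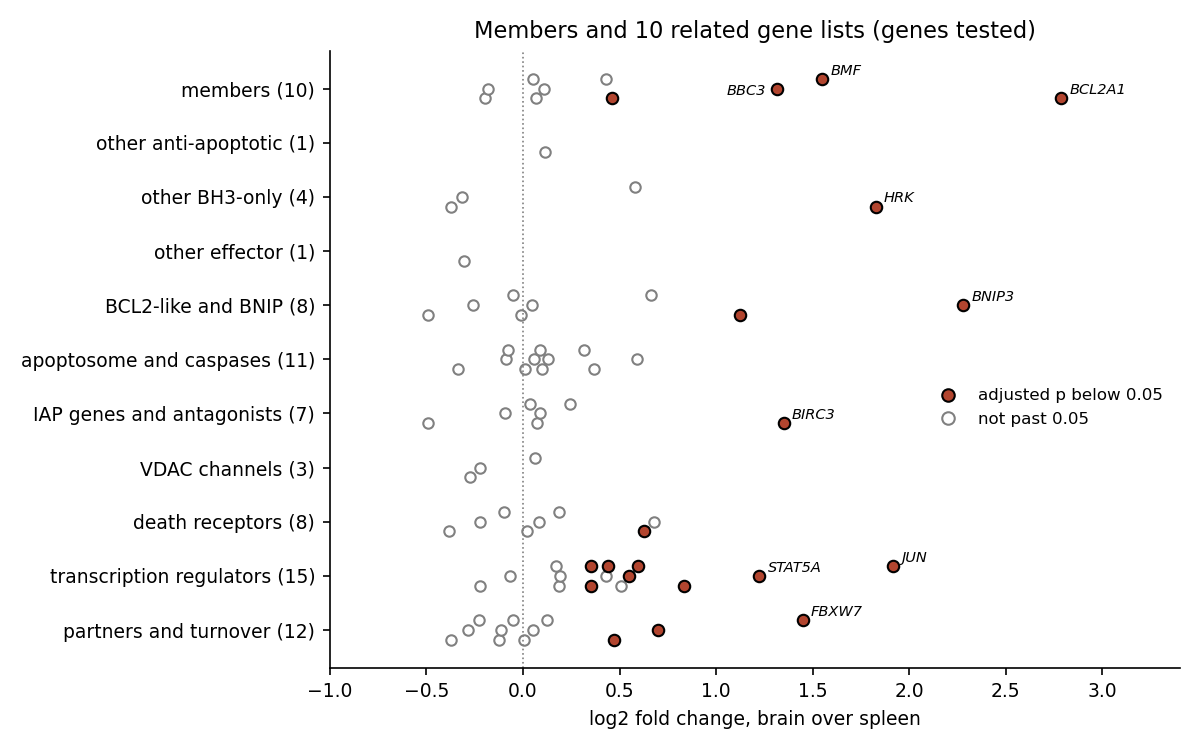
Log2 fold change, brain over spleen, of every tested gene of the members and of the 10 lists, with the number of tested genes in brackets and filled points for an edgeR adjusted p below 0.05. The filled points above 1.2 are labelled, and the apoptosome, caspase and VDAC genes hold none.

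**Figure D5:**
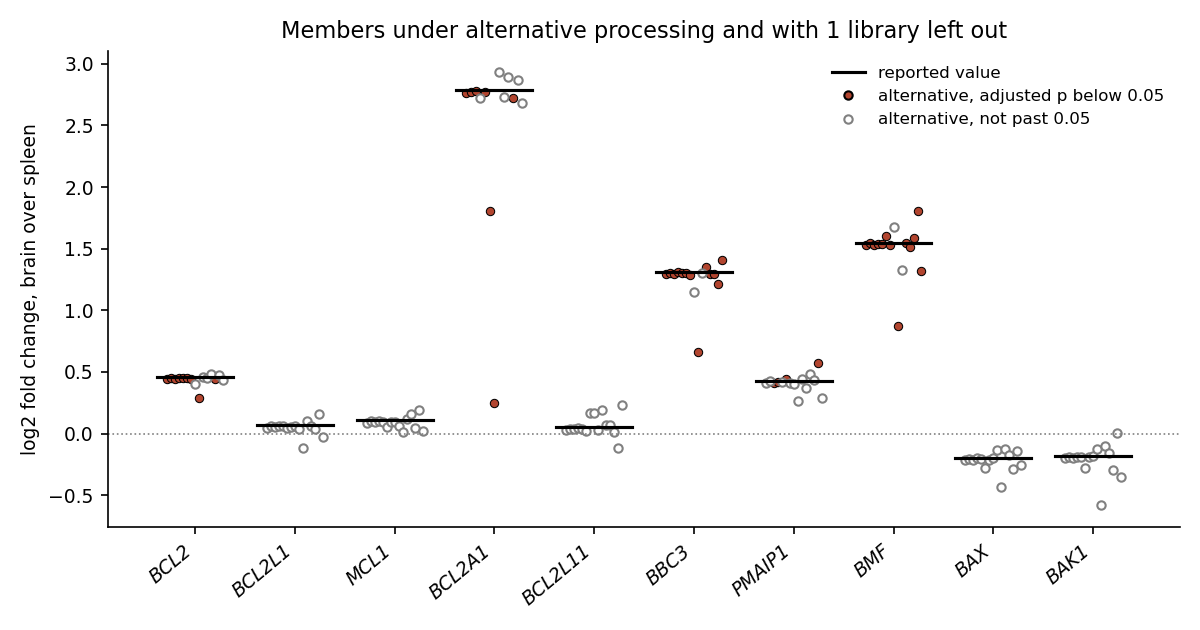
Log2 fold change of each member as reported (line) and under each alternative processing or with 1 library left out (points, filled where the adjusted p was below 0.05). BBC3 stays between 0.66 and 1.41 and BCL2 between 0.28 and 0.48, and the lowest point of BCL2, BCL2A1, BBC3 and BMF is from the authors' regularised log2 values.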

How the data were processed

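REH cells from brain (3 libraries) and spleen (2) were sequenced with a stranded mRNA kit, per the labels' protocols. Tools listed in the submitters' processing notes are kallisto 0.42.4, DESeq2, cutadapt 1.5 and bcl2fastq 1.8.4, and the builds are GRCh38 and GRCm38. Per the file headers, the authors deposited kallisto estimated counts and TPM per human and mouse transcript, beside gene tables of estimated counts (whole numbers) and log2 (rlog) values. The 1 column of each gene table that belongs to no sample was not used.

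Counts were tested with edgeR 4.0.16 in R 4.3.3 (filterByExpr, TMM, origin site as the only term, 3 residual degrees of freedom), adjusted over 20419 genes. Intervals are 95%. Human transcript estimates, rounded, were tested likewise, and TPM was rescaled to human transcripts. Identifiers were matched to GENCODE 44 (56322 of 65217). limma 3.58.1 ran on log2(TPM + 0.1) and on the authors' log2 values, and DESeq2 1.42.0 as an alternative. The code was tested on simulated data.

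Replicate numbers were read as occasions, and so pair brain and spleen for 2 of 3 occasions. The spleen columns are named with other numbers, so this pairing, on which the replicate block rests, is uncertain. Over genes, the differences between these occasions correlated at 0.0747 between the sites.

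All members are named, with transcripts holding at least 10% of a member's TPM, and up to 4 called genes of each list with the smallest p, or its most abundant gene where none passed. Members and lists were chosen with earlier results of these data known. Some genes of related lists and 1 upstream stretch are not reported here, and counts over the lists leave those genes out.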

Additional observations from a re-analysis of the deposited data

How the results depend on the processing

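Among the 15 alternatives, the count of 4 higher members moved to 1 with limma on log2 TPM (BCL2A1, adjusted p = 0.0229). It was 0 with the mouse share as a covariate, 3 with the 1 CPM filter and 5 with no filter on low counts. With 1 brain library left out it ranged from 2 to 4. The count of lower members stayed at 0 under all 15. The log2 fold change of BCL2L1 changed sign with the mouse share covariate (-0.12), and with 1 library left out it ran from -0.0244 to 0.155 for BCL2L1, from -0.12 to 0.231 for BCL2L11 and from -0.356 to 0.00427 for BAK1. Over all genes, 225 were higher and 65 lower with limma on log2 TPM and 114 and 11 with the mouse share covariate; the lower count was 1309 with the DESeq2 Wald test and 1337 with no filter on low counts. With 1 library left out 515 to 871 were higher and 146 to 828 lower. Over the other lists, the higher count of 16 moved to 3 with limma on log2 TPM and to 4 with the mouse share covariate, and ranged from 9 to 14 with 1 library left out. The lower count of 0 there was 1 with upper-quartile scaling, 1 with the 1 CPM filter, 4 with the DESeq2 Wald test, 3 with no filter on low counts and 4 with the replicate block, and ranged from 0 to 3 with 1 library left out. With the replicate block, which leaves 1 residual degree of freedom, the member counts were still 4 and 0, with PMAIP1 in (adjusted p = 0.0328) and BCL2A1 out (0.0504). Tested transcripts with a call numbered 0 with 1 library left out and 19 with no filter on low counts, where 0 were of members. Taken over the members only, the ratio of BH3-only to anti-apoptotic TPM ranged from 0.389 to 0.423 in brain and 0.312 to 0.354 in spleen with 1 library left out. It was 0.185 and 0.134 without the most abundant members. Without a spleen library, the other one is assumed to vary like the brain libraries. The causes were not tested. Among the members BCL2A1 had the fewest counts, and 2 of the alternatives (the 1 CPM filter and the DESeq2 Wald test) gave it no value.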
